A study of Saccharomyces cerevisiae with 18 samples.

Results

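Sulfate assimilation and methionine synthesis in budding yeast were followed through 10 genes in RNA-seq of a strain with wild-type Spn1 and of the mutants *spn1 K192N* and *spn1 141-305*. The genes were chosen by their function in the pathway, with earlier results of these data known. They are the sulfate permeases *SUL1* and *SUL2*, the sulfate activation genes *MET3* and *MET14*, the reduction genes *MET16*, *MET5* and *MET10*, and *MET2*, *MET6* and *STR3*, which act in homocysteine and methionine synthesis. All 10 were among the 6577 rows of the expression matrix, and all 10 passed the filter on low values that left 5954 genes for testing. No gene of the RefSeq R64 annotation overlapped any of the 10 coding regions. Only 5896 of the 6577 rows matched that annotation, so overlap with the remaining rows was not checked.

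The study asked how RNA levels in these 2 mutants of Spn1, a conserved histone-binding transcription elongation factor, relate to nucleosome positions. There were 9 libraries, 3 per genotype, each from its own culture grown in rich glucose medium at 30 °C to mid-exponential phase and mixed before lysis with 1 *S. pombe* cell for every 10 *S. cerevisiae* cells as a spike-in. The strains derive from BY4741 (MATa *his3*Δ1 *leu2*Δ0 *met15*Δ0 *ura3*Δ0), and both mutants carry a *spn1*Δ::LEU2 deletion and a plasmid, pCR312 for *spn1 K192N* (1 amino acid replaced) and pAA344 for *spn1 141-305* (only residues 141 to 305, without either tail), with expression from the native *SPN1* promoter. The labels' genotype for the wild-type libraries is the parental one without the deletion, whereas the growth protocol describes wild-type *SPN1* on a plasmid in the same deletion background. *LEU2*, which the parent lacks and the deletion cassette carries, stood at 11.23 to 11.41 in the wild-type libraries and at 11.16 to 11.30 in the mutants, so the wild-type libraries did not match the labelled parental genotype at this gene.

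Yeast makes methionine from inorganic sulfate. Permeases bring sulfate into the cell, ATP sulfurylase and APS kinase activate it, and PAPS reductase and sulfite reductase take it to sulfide. Sulfide is joined to O-acetylhomoserine to give homocysteine, and methionine synthase methylates homocysteine. Methionine is then turned into S-adenosylmethionine (SAM), the methyl donor of the cell. The genes are known to be activated when sulfur amino acids run short, by the activator Met4, which has no DNA binding of its own and is brought to promoters by Cbf1 or by Met31 and Met32. The strains lack *MET17* (also called *MET15*), which encodes the homocysteine-forming enzyme. They take methionine from the medium.

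The DNA letters known to be bound by Cbf1 (CACGTG) and by Met31 and Met32 (core CTGTGGC, or GCCACAG on the opposite strand) were searched on both strands of the 500 bases before each start codon in the R64 genome. The Cbf1 core was found before 8 of the 10 genes and before 374 of all 6000 genes (6.23%). The Met31/Met32 core was found before 3 of the 10 and before 226 of all genes (3.77%), and both occurred before 2 of the 10 and before 23 of all genes (0.383%). The stretches below are shown because they set *MET6*, *MET5* and *MET2*, which passed the test in at least 1 mutant, beside genes that did not. Each reads 5′ to 3′ on the strand of its gene, with a motif match in capitals.
*MET6*, chrV:342637-342667 (− strand), Cbf1 core 495 bases before the start codon: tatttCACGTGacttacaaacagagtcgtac
*MET5*, chrX:683593-683638 (− strand), Cbf1 core 333 bases before the start codon: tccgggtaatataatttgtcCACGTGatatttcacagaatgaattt
*MET2*, chrXIV:116976-117021 (+ strand), Cbf1 core 353 bases before the start codon: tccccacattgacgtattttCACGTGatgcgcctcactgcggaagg
*MET10*, chrVI:213043-213088 (+ strand), Cbf1 cores 249 and 231 bases before the start codon: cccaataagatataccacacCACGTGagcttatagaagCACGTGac
*MET3*, chrX:455842-455887 (+ strand), Cbf1 cores 377 and 360 bases before the start codon: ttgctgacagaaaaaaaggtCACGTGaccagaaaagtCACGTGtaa
*SUL2*, chrXII:323199-323245 (+ strand), Met31/Met32 core 325 bases before the start codon between Cbf1 cores at 334 and 308: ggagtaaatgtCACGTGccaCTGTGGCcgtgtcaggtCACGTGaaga
*STR3*, chrVII:156402-156448 (− strand), Met31/Met32 core 416 bases before the start codon: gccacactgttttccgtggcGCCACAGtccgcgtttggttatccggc

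*MET14* and *MET16* also had a Cbf1 core, at 228 and 178 bases before their start codons, while the window of *SUL1* held neither motif. Outside the stretches shown, *MET5* had another Cbf1 core at 304 bases, and the Met31/Met32 core occurred at 254 bases before *MET3* and again at 288 bases before *SUL2*. The searched window ran into a neighbouring coding region for 4 of the 10 genes (*MET2*, *MET10*, *MET16* and *SUL2*). The match before *MET6* was the farthest from a start codon of those found. Motif matches are a description of the sequence, and binding at these positions was not analysed here.

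The libraries matched the parental markers in part. *MET17* and *URA3* were listed at 0 in all 9 libraries and *LYS2* stood between 11.28 and 11.66, each as the genotype states. *HIS3*, mutated as *his3*Δ1 in the parent, was present in every library, with values from 12.97 to 14.89. The paper describes *HIS3* as carried by the plasmids that supply the *SPN1* alleles. Which copy gave this signal was not tested. Values throughout are rlog values, a log2 scale made by DESeq2 on which the differences of low genes are shrunk towards 0, after scaling of the libraries to the *S. pombe* spike-in. Of 4 genes specific to a cells, *STE2* (14.40 to 14.66) and *BAR1* (12.04 to 12.38) were present, and *MFA1* and *MFA2* were listed at 0. Of 4 genes specific to alpha cells, not expected under the MATa label, *SAG1* stood highest (9.78 to 10.01). *STE3* (6.52 to 6.75), *MF(ALPHA)2* (5.23 to 5.34) and *MF(ALPHA)1* (3.10 to 3.18) were lower, and the last missed the filter on low values. All 5 haploid-specific genes were present. *SPN1* itself was lower in *spn1 141-305* (log2 fold change −0.99, adjusted p = 0.00638, limma) and did not pass the test in *spn1 K192N* (0.52, adjusted p = 0.192, limma). It stood at 12.27, 12.95 and 11.66 in wild-type and 13.62, 12.55 and 12.28 in *spn1 K192N*. In *spn1 141-305* it stood at 11.06, 11.07 and 11.79, which overlapped wild-type. Within each genotype the library highest in *SPN1* was also the highest in *HIS3*, and the reason was not tested. The *SPN1* value was read over the whole coding sequence, of which *spn1 141-305* keeps only a part, so its lower value cannot be told apart from the shorter template. The median gene lay 0.018 to 0.11 above its mean over the 9 libraries in wild-type, −0.062 to 0.061 from it in *spn1 K192N* and −0.052 to −0.027 from it in *spn1 141-305*. Wild-type replicate 1 was the highest of all libraries, and *spn1 K192N* replicate 1 stood with the wild-type libraries, away from the other 2 of its genotype.

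*MET6* was the gene of the 10 with the lowest fold change in each mutant, and the only one that passed the test in both. *MET5* and *MET2* passed in *spn1 141-305* alone, and no gene of the 10 was higher in either mutant. A gene was called where limma, fitted to all 9 libraries, gave an adjusted p below 0.05 after Benjamini-Hochberg adjustment over the 5954 genes. In *spn1 K192N*, 1 of the 10 genes (10.0%) was lower, against 4.80% of all genes, and none was higher, against 0.403% of all genes. At an unadjusted p below 0.05, 3 of the 10 were lower, against 22.6% of all genes, and 0 higher, against 1.24%. In *spn1 141-305*, 3 of the 10 (30.0%) were lower, against 18.8% of all genes, and none was higher, against 0.453%, with 7 lower (34.8% of all genes) and 0 higher (1.01%) at an unadjusted p below 0.05. Both comparisons share the 3 wild-type libraries. Without *spn1 K192N* replicate 1, which also enters the shared estimate of spread, the count of lower genes was 5 of the 10 for *spn1 K192N* and 7 of the 10 for *spn1 141-305*, while the share of all genes called lower was 34.1% and 34.2%. When *spn1 141-305* replicate 1 or 3 was left out, or wild-type replicate 1 or 3, *MET6* was the 1 gene of the 10 lower in *spn1 141-305*, as it was after centring of libraries on the median gene. The share of all genes called lower in *spn1 141-305* ran from 4.67% to 21.5% over these omissions. The median log2 fold change of the 10 was −0.069 in *spn1 K192N*, where that of all genes was −0.076, and −0.17 in *spn1 141-305*, where that of all genes was −0.095. In bulk RNA, fewer cells expressing a gene and less RNA per cell cannot be told apart.

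**Figure D1:**
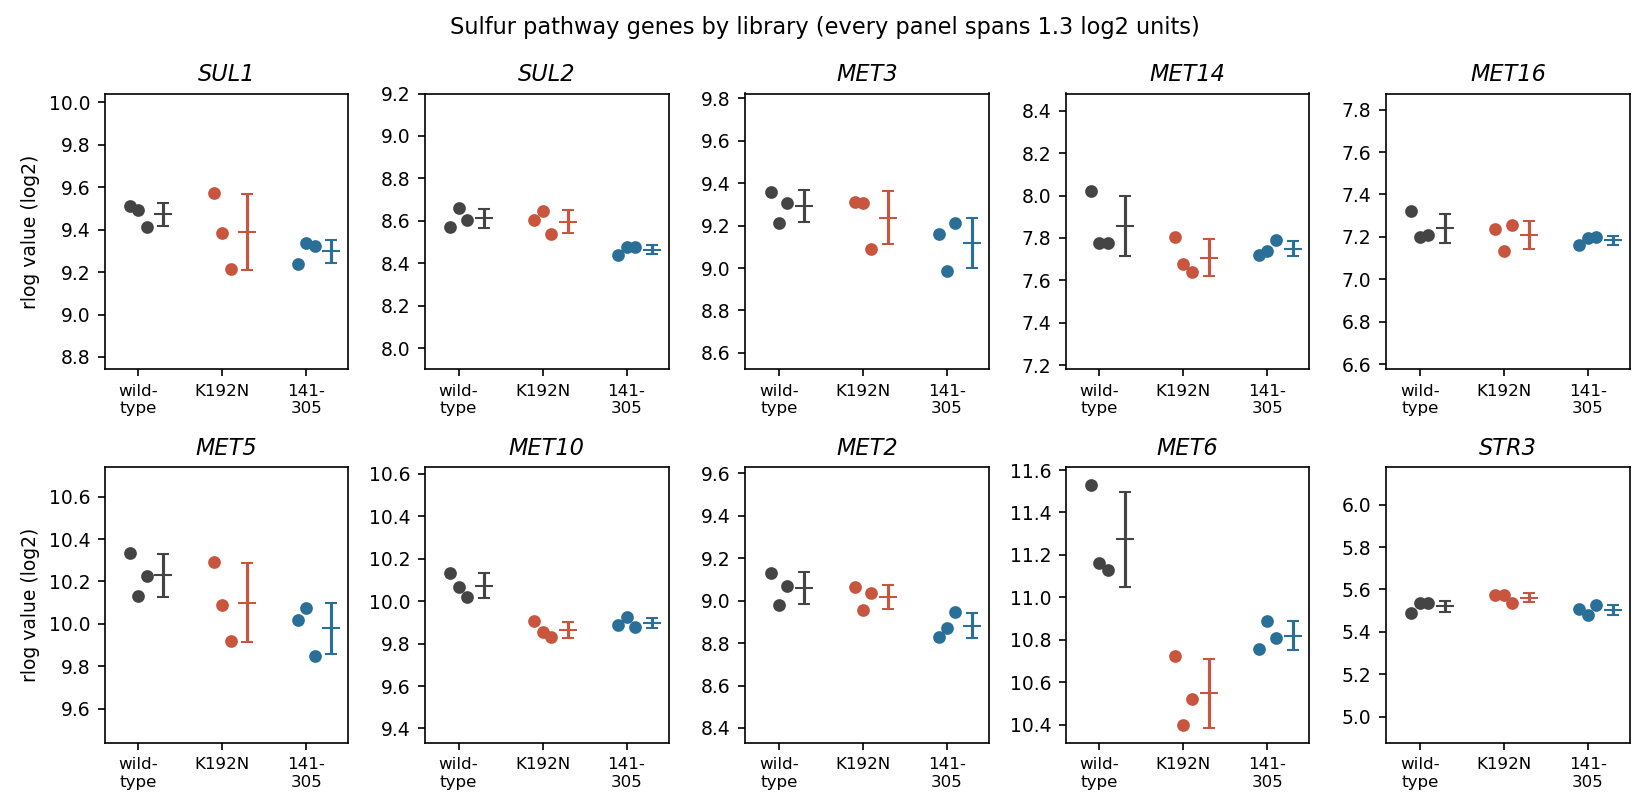
Level of each of the 10 genes (rlog, log2 units) in each library, with 1 panel per gene, points for the 3 libraries of each genotype and, beside them, their mean with its SD. The *MET6* points of wild-type (11.13 to 11.53) lie above those of both mutants, whereas the points of *STR3* (5.48 to 5.57) and *MET16* (7.13 to 7.32) lie close together in all genotypes.

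The sulfate permeases did not pass the test in any comparison. *SUL1* (YBR294W, R64 chrII:789235-791814), which encodes a high-affinity sulfate permease, stood at 9.51, 9.49 and 9.41 in wild-type replicates 1, 2 and 3, at 9.57, 9.38 and 9.21 in *spn1 K192N* and at 9.24, 9.34 and 9.32 in *spn1 141-305*. All 3 libraries of *spn1 141-305* were below all wild-type libraries, while the *spn1 K192N* libraries spread across the wild-type range, with replicate 1 the highest of the 9. Its log2 fold change was −0.083 (adjusted p = 0.489, limma) in *spn1 K192N* and −0.17 (adjusted p = 0.0937, limma) in *spn1 141-305*. Without *spn1 K192N* replicate 1 these were −0.17 (adjusted p = 0.0358, limma) and −0.17 (adjusted p = 0.0191, limma).

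*SUL2* (YLR092W, chrXII:323544-326225), the gene of a second high-affinity sulfate permease, stood at 8.57, 8.66 and 8.60 in wild-type, 8.61, 8.65 and 8.54 in *spn1 K192N* and 8.44, 8.48 and 8.48 in *spn1 141-305*. The *spn1 141-305* libraries were below every library of the other genotypes, and the wild-type and *spn1 K192N* libraries overlapped. Fitted log2 fold changes were −0.015 (adjusted p = 0.885, limma) in *spn1 K192N* and −0.15 (adjusted p = 0.0697, limma) in *spn1 141-305*. It was called in *spn1 141-305* without *spn1 K192N* replicate 1 (adjusted p = 0.0316, limma). The coding sequences of *SUL1* and *SUL2* shared 0 runs of 31 bases, so no read of that length would match both.

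*SUL1* lies 1 gene away from *PHO89*, the sodium and phosphate cotransporter gene, which had the lowest fold change of all genes in both mutants and was picked here after its values had been seen. The log2 fold change of *PHO89* was −2.59 in *spn1 K192N* and −1.83 in *spn1 141-305*, where *SUL1* had −0.083 and −0.17. *PCA1*, the cadmium exporter gene between them, had −0.12 (adjusted p = 0.261, limma) and −0.22 (adjusted p = 0.024, limma).

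The activation genes overlapped more between genotypes. *MET3* (YJR010W, chrX:456239-457774), which encodes ATP sulfurylase, stood at 9.36, 9.21 and 9.30 in wild-type, 9.31, 9.31 and 9.09 in *spn1 K192N* and 9.16, 8.99 and 9.21 in *spn1 141-305*. The highest *spn1 141-305* library lay just below the lowest wild-type library, and replicate 3 of *spn1 K192N* was the low library of its genotype. For *MET3* the log2 fold change was −0.055 (adjusted p = 0.647, limma) in *spn1 K192N* and −0.17 (adjusted p = 0.0856, limma) in *spn1 141-305*, with adjusted p = 0.0269 (limma) for the latter without *spn1 K192N* replicate 1.

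*MET14* (YKL001C, chrXI:438777-439385), which encodes APS kinase, stood at 8.02, 7.78 and 7.77 in wild-type, 7.80, 7.68 and 7.64 in *spn1 K192N* and 7.72, 7.74 and 7.79 in *spn1 141-305*. Wild-type replicate 1 was well above the other 8 libraries, and both mutants overlapped the remaining wild-type libraries. Its log2 fold changes were −0.15 (adjusted p = 0.143, limma) in *spn1 K192N* and −0.11 (adjusted p = 0.212, limma) in *spn1 141-305*. The first was −0.20 (adjusted p = 0.0116, limma) without *spn1 K192N* replicate 1.

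Among the reduction genes, *MET16* moved least and *MET5* was called in *spn1 141-305*. *MET16* (YPR167C, chrXVI:876847-877632), which encodes PAPS reductase, stood at 7.32, 7.20 and 7.21 in wild-type, 7.24, 7.13 and 7.25 in *spn1 K192N* and 7.16, 7.19 and 7.20 in *spn1 141-305*. All genotypes overlapped. Its log2 fold change was −0.033 (95% interval −0.13 to 0.068, adjusted p = 0.684, limma) in *spn1 K192N* and −0.058 (95% interval −0.16 to 0.044, adjusted p = 0.408, limma) in *spn1 141-305*.

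*MET5* (YJR137C, chrX:678957-683285) and *MET10* (YFR030W, chrVI:213312-216419) encode the beta and alpha subunits of sulfite reductase. *MET5* stood at 10.33, 10.13 and 10.23 in wild-type, 10.29, 10.09 and 9.92 in *spn1 K192N* and 10.02, 10.08 and 9.85 in *spn1 141-305*. The *spn1 141-305* libraries were all below the wild-type ones, and *spn1 K192N* reached from near the top of the wild-type range to below it. The log2 fold change was −0.13 (adjusted p = 0.342, limma) in *spn1 K192N* and −0.25 ± 0.084 (SE, n = 3 and 3 libraries, adjusted p = 0.0359, limma) in *spn1 141-305*. That call was lost without *spn1 141-305* replicate 1 (adjusted p = 0.0696, limma), *spn1 141-305* replicate 3 (0.166), wild-type replicate 1 (0.219) or wild-type replicate 3 (0.0523), and *MET5* was called in *spn1 K192N* without its replicate 1 (−0.23, adjusted p = 0.0137, limma).

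*MET10* stood at 10.14, 10.06 and 10.02 in wild-type, 9.91, 9.85 and 9.83 in *spn1 K192N* and 9.89, 9.93 and 9.88 in *spn1 141-305*. Every library of either mutant was below every wild-type library, and the mutants overlapped each other. Its log2 fold change fell just short of a call in both, at −0.21 (adjusted p = 0.058, limma) in *spn1 K192N* and −0.18 (adjusted p = 0.0566, limma) in *spn1 141-305*. Without *spn1 K192N* replicate 1 both were called (adjusted p = 0.00585 and 0.0152, limma), and without *spn1 K192N* replicate 3 the second was (adjusted p = 0.0469, limma). Libraries that did not overlap the wild-type ones on the low side were seen for 2 of the 10 genes in *spn1 K192N*, against 18.8% of all genes, and for 7 of the 10 in *spn1 141-305*, against 45.0% of all genes. On the high side there were none in either mutant, against 1.44% and 1.60% of all genes.

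*MET2* (YNL277W, chrXIV:117349-118809), which encodes homoserine O-acetyltransferase, stood at 9.13, 8.98 and 9.07 in wild-type, 9.07, 8.96 and 9.03 in *spn1 K192N* and 8.83, 8.87 and 8.95 in *spn1 141-305*. The *spn1 141-305* libraries were below all 6 others, while wild-type and *spn1 K192N* overlapped. The log2 fold change was −0.041 (adjusted p = 0.698, limma) in *spn1 K192N* and −0.18 ± 0.063 (SE, n = 3 and 3 libraries, adjusted p = 0.0482, limma) in *spn1 141-305*. That call was close to the threshold and held only without *spn1 K192N* replicate 1 or 3. Leaving out any of the 3 wild-type libraries, any of the 3 *spn1 141-305* libraries or *spn1 K192N* replicate 2 gave adjusted p-values from 0.0514 to 0.216 (limma).

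*MET6* (YER091C, chrV:339864-342167), which encodes the cobalamin-independent methionine synthase, stood at 11.53, 11.16 and 11.13 in wild-type replicates 1, 2 and 3, at 10.72, 10.40 and 10.52 in *spn1 K192N* and at 10.76, 10.89 and 10.81 in *spn1 141-305*. Every mutant library was below every wild-type library, and every *spn1 K192N* library was below every *spn1 141-305* library. The wild-type mean was 11.27 ± 0.22, the *spn1 K192N* mean 10.55 ± 0.16 and the *spn1 141-305* mean 10.82 ± 0.068 (SD, n = 3 libraries each).

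In *spn1 K192N* the *MET6* level fell by 0.73 on the log2 scale (95% interval −0.91 to −0.54, adjusted p = 6.07e-06, limma), to 0.605 of wild-type, and its fold change was the 12th lowest of all 5954. In *spn1 141-305* it fell by 0.45 (95% interval −0.64 to −0.27, adjusted p = 0.0017, limma), to 0.73 of wild-type and the 59th lowest. Both calls held when each of the 9 libraries was left out in turn. The log2 fold change then ranged from −0.81 to −0.60 in *spn1 K192N* and from −0.53 to −0.33 in *spn1 141-305*, with the smallest change in both without wild-type replicate 1 (adjusted p = 0.000945 and 0.0376, limma).

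The 2 mutants differed in *MET6* by 0.27 (95% interval 0.082 to 0.46), higher in *spn1 141-305*, and this difference missed the threshold (adjusted p = 0.157, limma). It was called without *spn1 K192N* replicate 1 (0.36, adjusted p = 0.00332, limma) and after centring of libraries on the median gene (0.30, adjusted p = 0.0231, limma). None of the other 9 genes was called between the mutants in any of the settings run. Over all 10 genes, 0 were called in either direction between the mutants, against 1.28% of all genes called lower and 0.621% called higher in *spn1 141-305*, while at an unadjusted p below 0.05 there were 2 lower, against 9.12% of all genes, and 1 higher, against 3.46%. The 3 whose *spn1 141-305* libraries were all below those of *spn1 K192N* were *MET2* (−0.14), *SUL2* (−0.13) and *STR3* (−0.057), against 12.0% of all genes. *MET6* was the 1 with all above, against 4.55% of all genes.

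**Figure D2:**
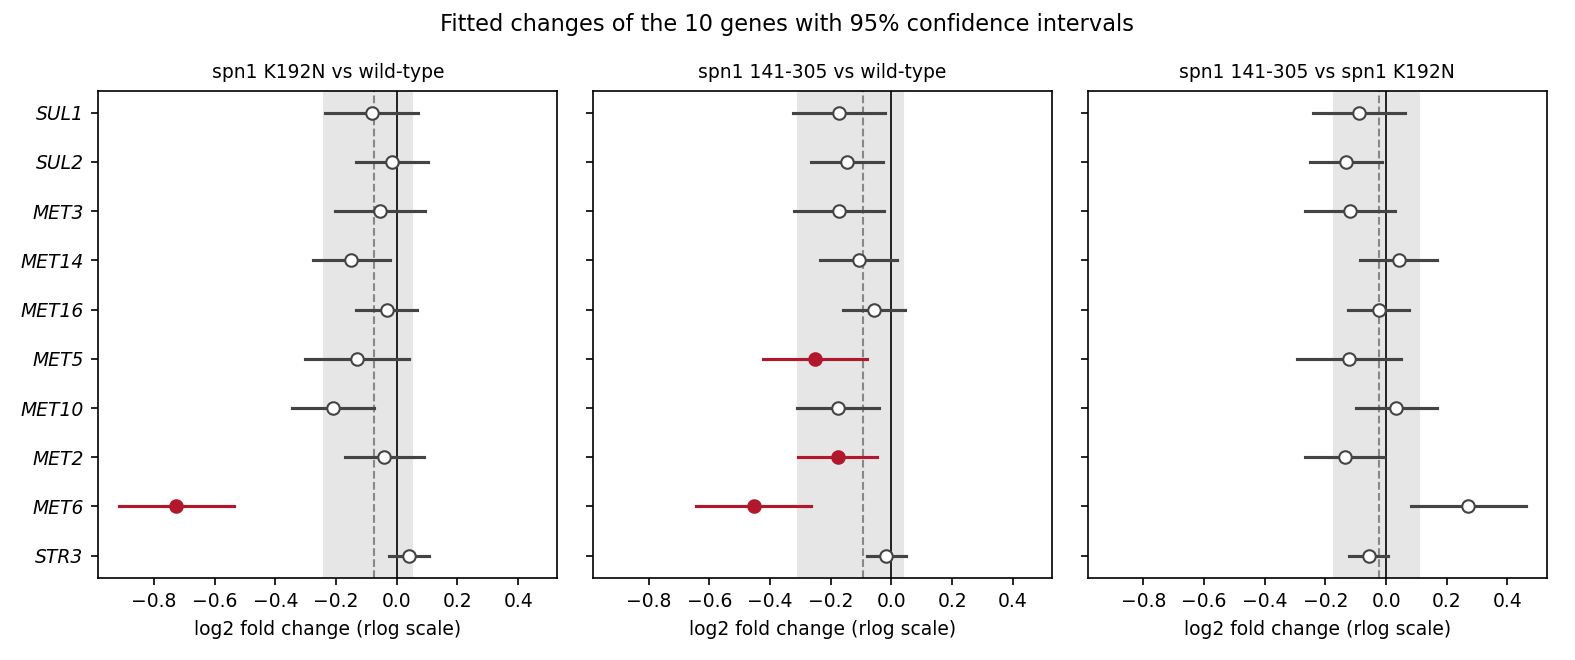
Log2 fold change of the 10 genes in the 3 comparisons (points) with 95% intervals from limma (bars), beside the median of all 5954 tested genes (dashed line) and their 5th to 95th percentile (grey band). Filled points passed the test. *MET6* lies farthest below 0 in both mutants, at −0.73 and −0.45, and farthest above 0 between the mutants, at 0.27.

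*MET6* was also set against the mean of the other 9 genes within each library. It stood 2.88, 2.60 and 2.56 above that mean in wild-type, 2.13, 1.89 and 2.07 above it in *spn1 K192N* and 2.32, 2.44 and 2.34 above it in *spn1 141-305*. The 3 genotypes did not overlap, with means of 2.68 ± 0.17, 2.03 ± 0.12 and 2.37 ± 0.063 (SD, n = 3). *MET6* was picked for its fold changes in these same libraries, so this is a description and not further support.

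*STR3* (YGL184C, chrVII:154615-156012), which encodes cystathionine beta-lyase, stood at 5.49, 5.54 and 5.54 in wild-type, 5.57, 5.57 and 5.54 in *spn1 K192N* and 5.51, 5.48 and 5.53 in *spn1 141-305*. Wild-type overlapped each mutant. Its log2 fold change was 0.041 (95% interval −0.024 to 0.11, adjusted p = 0.428, limma) in *spn1 K192N*, the only value above 0 among the 10, and −0.017 (95% interval −0.082 to 0.048, adjusted p = 0.728, limma) in *spn1 141-305*. The authors' mean scaled count of *STR3* was 46.4, the lowest of the 10, where that of *MET6* was 1986, and rlog shrinkage is strongest for such low genes.

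Levels between genes were compared per kilobase of coding length, as the log2 level in wild-type. *MET6* was highest at 10.07 per kilobase, 1.40 above *MET3*. Next came *MET3* (8.67), *MET14* (8.57), *MET2* (8.51) and *MET10* (8.44), and each neighbouring pair of these overlapped between libraries. *MET5* (8.12) and *SUL1* (8.10) followed and overlapped each other. The lower levels of *MET16* (7.59), *SUL2* (7.19) and *STR3* (5.04) were each separate from the next, and the step from *SUL2* to *STR3* was the widest of the order at 2.15. The sulfite reductase subunit genes *MET10* and *MET5*, whose products form 1 enzyme, differed by 0.32 per kilobase without overlap.

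The fold changes of all genes moved with coding length, and 5 of the 10 genes were in the longest quartile. Protein-coding genes of 1917 to 14733 bp had a median log2 fold change of −0.13 in *spn1 K192N* and −0.19 in *spn1 141-305*, where genes of 153 to 777 bp had −0.037 and −0.029. Against the median of its own length quartile, *MET6* (2304 bp) was lower by −0.60 in *spn1 K192N* and −0.26 in *spn1 141-305*. The differences of the other 9 from their quartile medians ran from −0.11 (*MET14*) to 0.13 (*STR3*) in *spn1 K192N* and from −0.079 (*MET14*) to 0.11 (*STR3*) in *spn1 141-305*. All rest on rlog fold changes, which are shrunk most for low genes such as *STR3*. Of the 10 genes, 4 lay below their quartile's median in *spn1 K192N* and 5 in *spn1 141-305*.

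*MET5*, the longest of the 10 at 4329 bp, differed from its quartile's median by −0.0039 in *spn1 K192N* and −0.059 in *spn1 141-305*, and 45.1% of the genes in that quartile were called lower in *spn1 141-305*. *MET2* at 1461 bp differed from the median of its own quartile by 0.053 and −0.056. Across the 10 genes, which share the same libraries, Pearson's r of log2 fold change and length was −0.19 for *spn1 K192N*. For *spn1 141-305* it was −0.47, or −0.73 without *MET6*. The part of length in the calls of single genes was not tested.

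**Figure D3:**
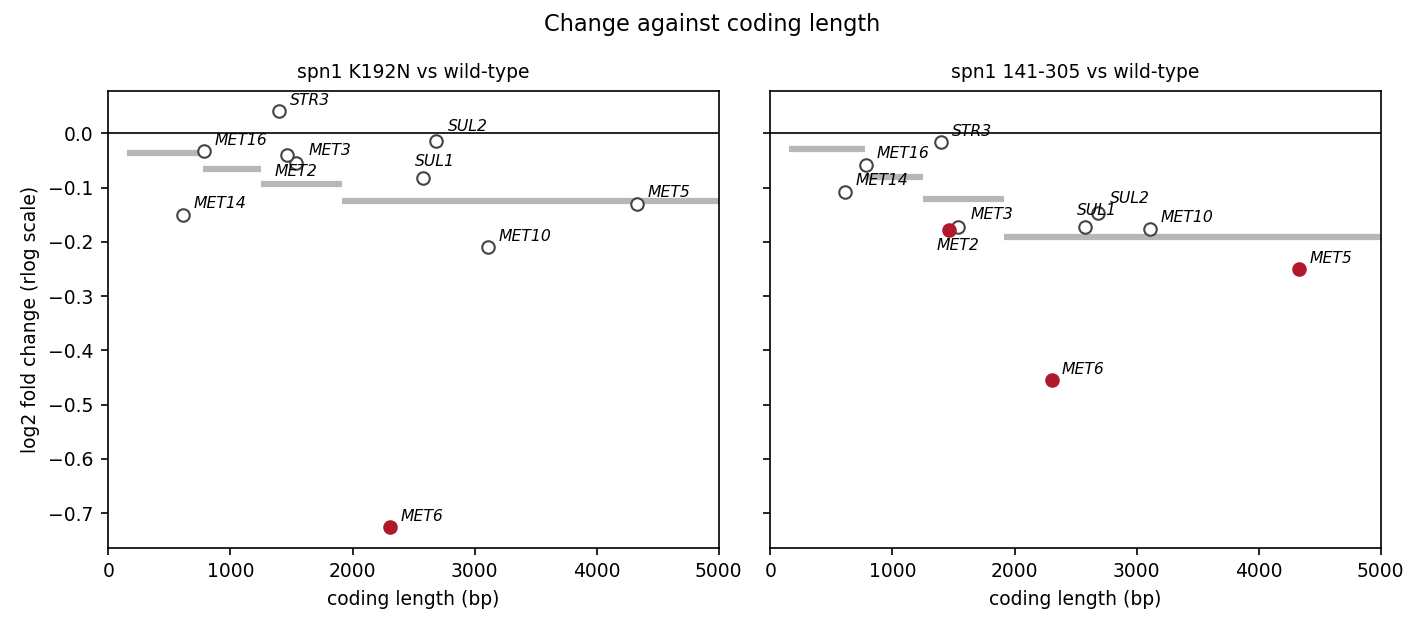
Log2 fold change against coding length (bp) for the 10 genes (labelled points) in *spn1 K192N* and *spn1 141-305*, with horizontal lines at the median of all protein-coding genes in each length quartile. *MET6* differs from the line of its quartile by −0.60 and −0.26, and the other 9 genes differ from theirs by between −0.11 and 0.13. The line of the longest quartile is drawn only to the right edge of the plot.

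Outside the 10, another 40 genes of sulfur metabolism were read from the same fit. In *spn1 K192N* 6 of the 40 (15.0%) were lower and 0 higher, against 4.80% and 0.403% of all genes, with a median log2 fold change of −0.11. In *spn1 141-305* 6 (15.0%) were lower and 0 higher, against 18.8% and 0.453% of all genes, with a median of −0.11. Without *spn1 K192N* replicate 1 these counts were 20 and 15, where 34.1% and 34.2% of all genes were called lower. Without wild-type replicate 1 they were 2 and 0, where 0.84% and 4.67% of all genes were, so no call of the 40 in *spn1 141-305* held without that library. The *spn1 K192N* count was 3 without *spn1 K192N* replicate 2 (2.32% of all genes), *spn1 K192N* replicate 3 (2.00%) or wild-type replicate 2 (2.38%). The SAM synthetase genes, which act just after methionine synthase, were called in both mutants.

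*SAM2*, the gene of one of the paired SAM synthetases, stood at 10.96, 10.71 and 10.65 in wild-type, 10.55, 10.31 and 10.18 in *spn1 K192N* and 10.29, 10.35 and 10.47 in *spn1 141-305*. All 6 mutant libraries were below all wild-type libraries. It was lower by a log2 fold change of −0.42 (adjusted p = 0.004, limma) and −0.40 (adjusted p = 0.00294, limma). Its paralog *SAM1* stood at 14.13 to 14.39 in wild-type and lower in the mutants, at 13.74 to 14.03 (*spn1 K192N*) and 13.79 to 14.02 (*spn1 141-305*), with log2 fold changes of −0.36 (adjusted p = 0.0218, limma) and −0.34 (adjusted p = 0.0134, limma). The pair shared 58 runs of 31 bases (5.18% of *SAM1* and 5.16% of *SAM2*), so some reads could be split between them.

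*SAM3*, which encodes a SAM permease, was lower in *spn1 K192N* (−0.36, adjusted p = 0.0015, limma), where its libraries stood at 9.08 to 9.27 against 9.45 to 9.63 in wild-type, and had −0.12 (adjusted p = 0.21, limma) in *spn1 141-305*. The S-methylmethionine permease gene *MMP1* was lower in *spn1 141-305* (−0.25, adjusted p = 0.00631, limma) and had −0.087 (adjusted p = 0.39, limma) in *spn1 K192N*. *MUP3*, which encodes a low-affinity methionine permease, was the only gene of the 40 called between the mutants, lower in *spn1 141-305* (−0.18, adjusted p = 0.0294, limma). For *SAM3* the difference between the mutants was 0.24 (adjusted p = 0.0624, limma) and for *MMP1* −0.17 (adjusted p = 0.207, limma), so neither was shown to differ between them.

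*ADI1*, a dioxygenase gene of the methionine salvage pathway, was lower in both mutants, by −0.35 (adjusted p = 0.000169, limma) and −0.25 (adjusted p = 0.00342, limma). *GSH1*, which encodes the first enzyme of glutathione synthesis, was lower by −0.28 (adjusted p = 0.0372, limma) and −0.23 (adjusted p = 0.0431, limma), with overlapping libraries in the first. *GSH2*, the gene of the second enzyme, was lower in *spn1 141-305* (−0.32, adjusted p = 0.0062, limma) and had −0.12 (adjusted p = 0.326, limma) in *spn1 K192N*. The transsulfuration gene *CYS3* was not called, with −0.16 (adjusted p = 0.252, limma) and −0.10 (adjusted p = 0.393, limma).

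Of the 6 regulators, 1 was called lower in *spn1 K192N*, against 4.80% of all genes, and 0 in *spn1 141-305*, against 18.8%. None was called higher, against 0.403% and 0.453% of all genes. *MET4*, the activator, stood at 10.57, 10.45 and 10.43 in wild-type, 10.35, 10.22 and 10.16 in *spn1 K192N* and 10.34, 10.33 and 10.23 in *spn1 141-305*. The mutant libraries did not overlap the wild-type ones, and the log2 fold change was −0.24 (adjusted p = 0.0435, limma) and −0.18 (adjusted p = 0.0687, limma). The DNA-binding partners differed in sign. *CBF1* had −0.12 and −0.13, *MET31* had −0.074 and −0.041, and *MET32* had 0.10 and 0.036 as log2 fold changes, none called (adjusted p from 0.157 to 0.654, limma). *MET30*, which encodes the F-box protein that restrains Met4, had −0.13 (adjusted p = 0.231, limma) and −0.18 (adjusted p = 0.0548, limma). *MET28*, a cofactor gene of the same complex, was near the lower limit of the tested genes with a mean scaled count of 12.9 and log2 fold changes of −0.028 and −0.026.

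**Figure D4:**
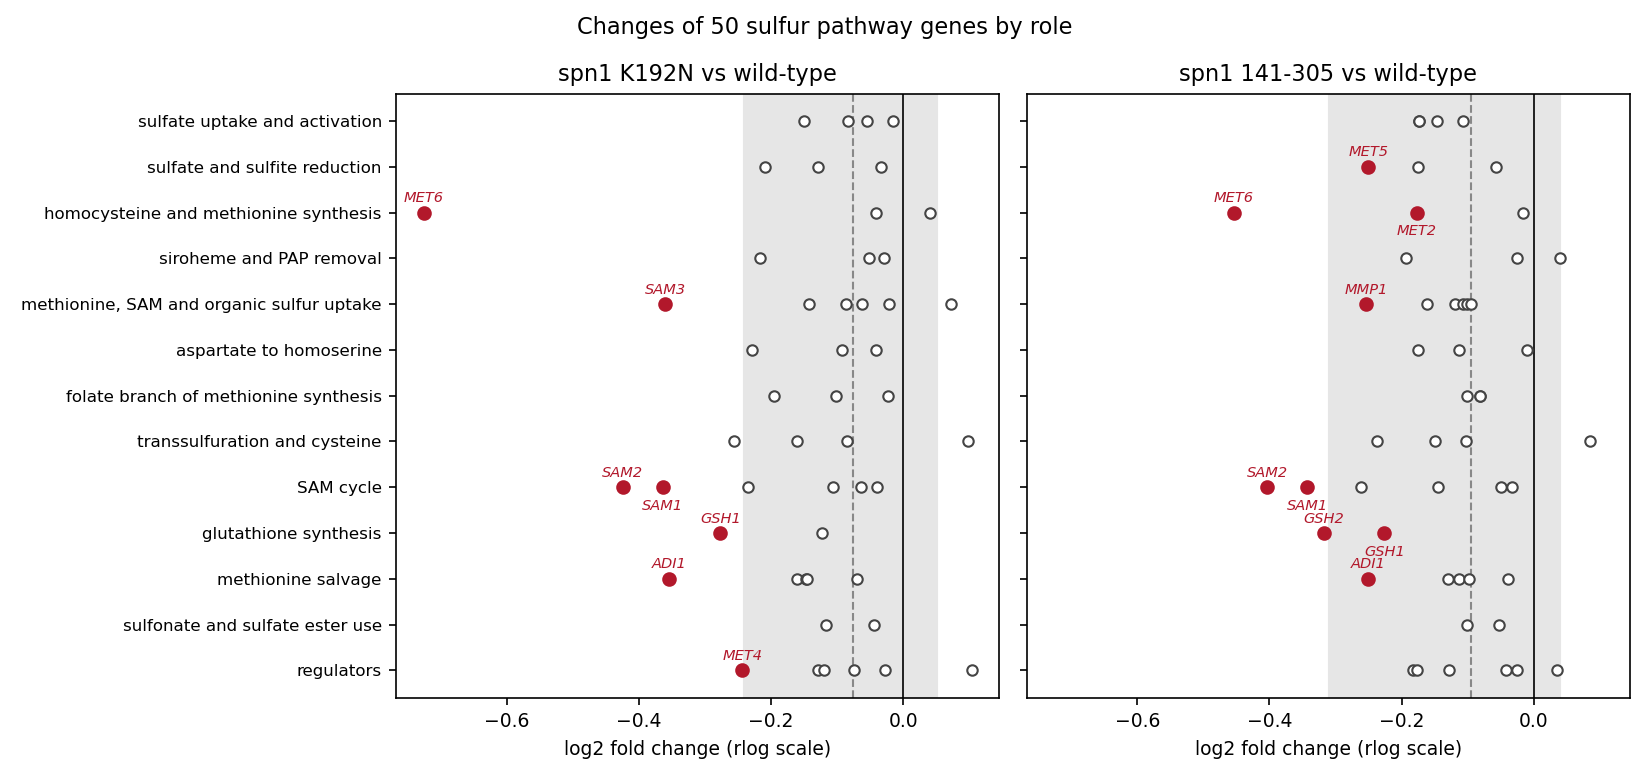
Log2 fold change of the 10 genes and the other 40 genes of sulfur metabolism, by their role in the pathway, in *spn1 K192N* and *spn1 141-305*. Filled points passed the test, the dashed line is the median of all tested genes and the grey band their 5th to 95th percentile. *MET6* (−0.73 and −0.45) lies lowest in both panels, and the genes of sulfate uptake and activation lie between −0.17 and −0.015 with none called.

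Biosynthetic genes outside sulfur metabolism were read from the same fit. Of 22 genes of the synthesis of other amino acids, grouped here as Gcn4-type, 0 were lower and 1 higher in *spn1 K192N*. The shares of all genes were 4.80% and 0.403%, and the median log2 fold change of the 22 was −0.089. The higher gene was *SER3* (0.51, adjusted p = 0.0243, limma), whose *spn1 K192N* libraries overlapped the wild-type ones. Its control by Gcn4 was not tested. In *spn1 141-305* 2 were lower and 2 higher, against 18.8% and 0.453% of all genes, with a median of −0.012. Of 9 purine synthesis genes, 1 was lower and 0 higher in *spn1 K192N* (median 0.047), and 0 were lower and 1 higher in *spn1 141-305* (median 0.047), beside the same shares of all genes. The lists were not tested against the 10 sulfur genes.

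The 10 genes varied together across libraries to different degrees. Averaged over the 10, the deviation from each gene's mean was 0.18, 0.063 and 0.069 in wild-type, 0.051, −0.057 and −0.10 in *spn1 K192N* and −0.087, −0.061 and −0.058 in *spn1 141-305*. Wild-type replicate 1 was the highest library and *spn1 K192N* replicate 1 stood apart from its genotype, as they did for the median of all genes. Over the 9 libraries, which share this spread in scale, Pearson's r of a gene with the mean of the other 9 was 0.88 for *MET10*, 0.84 for *MET14*, 0.79 for *SUL1* and for *MET5*, 0.69 for *MET2*, 0.66 for *MET6*, 0.61 for *MET3*, 0.60 for *MET16* and 0.45 for *SUL2*. *STR3* alone did not follow the rest, with r of −0.10.

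The genes outside the 10 whose profile over the 9 libraries was most like the mean profile of the 10 were *ELP2* (r of 0.991), *SFB3*, *RPO21*, *MIS1* and *URA7* (0.983). *ELP2* encodes a subunit of Elongator, *SFB3* a vesicle coat protein, *RPO21* the largest subunit of RNA polymerase II, *MIS1* a mitochondrial folate enzyme and *URA7* a CTP synthase. A profile like that of the 10 was common, since 741 of the 5944 other tested genes (12.5%) had r above 0.9 and the median r was 0.68.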

How the data were processed

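RNA-seq of 9 libraries was used, 3 for each of 3 genotypes. The authors quantified transcripts with Salmon 1.9 on *S. cerevisiae* cDNA (Ensembl release 113, build R64) and *S. pombe* cDNA. The authors scaled libraries by DESeq2 1.30.1 size factors from the *S. pombe* genes (R 4.0.3). The deposited matrix holds rlog values, a log2 scale that shrinks differences of low genes. The authors' mean scaled count per gene, a signal pooled over all libraries, came from a comparison table. The fold changes and p-values of the authors' comparison tables were not used. Counts per library were not used here, so depth is unknown and no counting error is given. Columns of other samples numbered 0.

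Differences were tested with limma 3.58.1 in R 4.3.3, fitting a mean for each genotype over all 9 libraries and an eBayes prior with a trend. P-values were two-sided and adjusted by Benjamini-Hochberg over 5954 genes, those whose mean rlog reached log2(10), and 0.05 was the threshold for a call. The script was tested on simulated data. The alternatives were the library centring, filter, prior, threshold, the samples fitted, a replicate block and each library left out.

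The 10 genes and all lists were chosen with earlier results of these data known. Text names the 10, the 6 regulators, *CYS3* and *SAM2*, up to 8 called pathway genes, strain markers, *SPN1* and the 5 most alike genes. Positions, lengths and sequences came from the RefSeq R64 genome, to which 5896 identifiers matched. The strain field of the labels counts up from BY4741 to BY4749 over the 9 libraries, while the genotype field names BY4741. The chromatin data were not analysed here. Figures used Python 3.11.15 with matplotlib 3.10.9.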

Additional observations from a re-analysis of the deposited data

How the results depend on the processing

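The calls of *MET6* in both mutants held under all 7 other settings and all 9 omissions of a library, and no other call of the 10 genes did. Centring each library on its median gene moved all fold changes up. It gave *spn1 K192N* 77 genes higher and *spn1 141-305* 494 lower, 189 higher and 1 of the 10 lower. Between mutants it gave 142 lower, 111 higher and 1 of the 10 higher. It turned the sign of *MET16* between mutants (4.4e-05), of *MET16* (0.043) and *STR3* (0.085) in *spn1 141-305*, and of *MET16* (0.043), *MET2* (0.036), *MET3* (0.022) and *SUL2* (0.062) in *spn1 K192N*. With an adjusted p below 0.1, *spn1 K192N* had 607 lower, 45 higher and 2 of the 10 lower, *spn1 141-305* had 1743 lower, 45 higher and 7 of the 10 lower, and 122 were lower between mutants. Without a trend in the prior variance, *spn1 K192N* had 159 lower, 14 higher and 2 of the 10 lower, with 13 lower and 6 higher between mutants. With only the 2 genotypes compared, *spn1 141-305* had 2077 lower, 59 higher and 7 of the 10 lower. The cause of these moves was not tested.

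Leaving out each library in turn gave *spn1 K192N* 50 to 2031 genes lower, 12 to 44 higher and 1 to 5 of the 10 lower, where 5 came without *spn1 K192N* replicate 1. It gave *spn1 141-305* 278 to 2038 lower, 9 to 56 higher and 1 to 7 of the 10 lower. Between mutants 38 to 146 were lower, 25 to 116 higher, and 0 to 1 of the 10 higher. Signs turned within these ranges for *SUL1* between mutants (−0.18 to 0.00079) and, in *spn1 K192N*, for *MET16* (−0.056 to 0.0061), *MET3* (−0.095 to 0.018), *SUL1* (−0.17 to 0.0050) and *SUL2* (−0.040 to 0.015). The 3 libraries per genotype and the rlog shrinkage limit the precision.

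The replicate numbers gave no clear sign of pairing. Of 9 same-numbered pairs, 3 correlated above 0.1 (r from −0.28 to 0.25), and 3 of 9 libraries correlated best with their own number. With 3 libraries per genotype, these correlations cannot exclude a pairing. A replicate block gave 469 genes lower in *spn1 K192N* and 2 of the 10 lower, the second being *MET10* (adjusted p = 0.0365, limma).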
